A study of Homo sapiens with 12 samples.

Results

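Condensin is the protein complex that folds and compacts chromosomes for cell division, and its 8 subunit genes are described here in NB4 cells. These are a cell line from human acute promyelocytic leukemia, and all-trans retinoic acid (ATRA) drives them to mature into granulocyte-like cells. The genes are SMC2, SMC4, NCAPD2, NCAPD3, NCAPG, NCAPG2, NCAPH and NCAPH2, taken by name, and all 8 were measured, each by 1 probe set annotated to that gene alone, among 18404 genes read in this way. Expression was measured on 12 Affymetrix ST arrays of total RNA, as log2 values. Knockdown cells given 0.5 uM ATRA for 96 hours (shRNA1, 2 arrays; shRNA2, 1 array, both against the long noncoding RNA HOTAIRM1) were set beside control cells given the same (scrambled shRNA, 2 arrays; wild type, 1 array), and untreated knockdown cells beside untreated control cells with the same make-up, 3 arrays in each of 4 arms. The shRNAs came on a lentiviral vector with a GFP marker, and those lines were sorted and grown from single cells, so a line carries the traits of its founding cell, while wild type cells went through neither step. The labels call the 2 scrambled and 2 shRNA1 samples biological replicates without saying whether they are separate clones, so a p-value reflects only how these samples vary, and some of that variation may be technical. The level of HOTAIRM1 was not analysed here, so its knockdown was not checked.

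All condensins share a pair of ATPases, SMC2 and SMC4, whose long coiled-coil arms form a hinged clamp around DNA. In condensin I the clamp is closed by the kleisin subunit NCAPH, which holds the HEAT-repeat subunits NCAPD2 and NCAPG, and in condensin II by NCAPH2 with NCAPD3 and NCAPG2. Condensin II is in the nucleus through the whole cell cycle and starts compaction in prophase, while condensin I reaches the chromosomes after the nuclear envelope breaks down. Granulocytes stop dividing as they mature.

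Many genes used in mitosis carry a cell cycle element called CHR together with CCAAT boxes close to their start, and many S phase genes carry E2F sites. RefSeq promoter windows, from 250 bases before to 50 bases after an annotated start, were available for 7 of the 8 genes in 10 windows (GRCh38.p14). They were searched on both strands for 2 CHR elements, of which the first is TTTGAA and the second, the same on both strands, is TTCGAA. The search also took in the CCAAT box and 3 E2F-like motifs, namely TTTCGCG as the first, TTTGGCG as the second and TTCCCGC as the third. The 4 windows below are shown because 3 of them hold TTTGAA together with other motifs and the fourth belongs to NCAPG2, the subunit with the smallest p-value under ATRA. Capitals mark the motifs as read on the gene's own strand, 5′ to 3′, so that a CCAAT box on the other strand reads ATTGG and, likewise, the third E2F-like motif there reads GCGGGAA. No marked motif overlaps another.
NCAPD2, condensin I, chr12:6493852-6494151, plus strand: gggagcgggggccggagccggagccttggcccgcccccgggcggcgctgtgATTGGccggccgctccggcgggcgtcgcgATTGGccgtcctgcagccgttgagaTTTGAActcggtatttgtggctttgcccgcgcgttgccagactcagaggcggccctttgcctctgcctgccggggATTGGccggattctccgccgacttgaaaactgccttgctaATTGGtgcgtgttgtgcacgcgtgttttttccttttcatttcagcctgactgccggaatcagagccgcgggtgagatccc
NCAPG, condensin I, chr4:17810729-17811028, plus strand: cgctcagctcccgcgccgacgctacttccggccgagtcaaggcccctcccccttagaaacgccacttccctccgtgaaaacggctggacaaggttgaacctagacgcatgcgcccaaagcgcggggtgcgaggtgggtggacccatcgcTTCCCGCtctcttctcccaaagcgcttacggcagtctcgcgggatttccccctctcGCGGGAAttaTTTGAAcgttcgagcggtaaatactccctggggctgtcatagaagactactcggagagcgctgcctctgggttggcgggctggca
NCAPD3, condensin II, chr11:134223918-134224217, minus strand: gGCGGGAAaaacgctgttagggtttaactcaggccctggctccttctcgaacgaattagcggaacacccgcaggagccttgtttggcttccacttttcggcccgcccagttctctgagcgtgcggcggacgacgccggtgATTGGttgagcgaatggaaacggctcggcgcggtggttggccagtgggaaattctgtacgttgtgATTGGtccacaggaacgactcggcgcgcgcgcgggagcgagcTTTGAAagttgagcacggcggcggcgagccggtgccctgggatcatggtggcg
NCAPG2, condensin II, chr7:158704755-158705054, minus strand: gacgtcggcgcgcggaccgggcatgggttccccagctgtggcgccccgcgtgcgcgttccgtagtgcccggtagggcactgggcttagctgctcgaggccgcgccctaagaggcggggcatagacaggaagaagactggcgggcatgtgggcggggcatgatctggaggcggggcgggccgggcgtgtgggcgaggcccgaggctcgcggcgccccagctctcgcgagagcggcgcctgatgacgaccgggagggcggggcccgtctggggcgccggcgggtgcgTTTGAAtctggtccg

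NCAPD2 has TTTGAA beginning 145 bases before its start and 4 CCAAT boxes, which begin 199, 170, 70 and 30 bases before it. NCAPG has the same CHR element 35 bases before the start and the third E2F-like motif at 101 and 45 bases. In NCAPD3, TTTGAA begins 3 bases before the start and runs across it, with CCAAT boxes at 110 and 45 bases and the third E2F-like motif at 249 bases. NCAPG2 holds a single match, TTTGAA, 35 bases after the start. TTTGAA was also found in 1 of the 2 windows each of SMC2 and SMC4, at 3 and 75 bases before the start, and a CCAAT box in the window of NCAPH at 112 bases. In all, TTTGAA lay in 6 of the 10 windows, against 15.2% of 35116 windows of all genes, the CCAAT box in 3, against 34.6%, and the third E2F-like motif in 2, against 6.55%. The other CHR element and the first and second E2F-like motifs were found in 0 of the 10 windows, and in 1.45%, 1.32% and 1.92% of all windows. These are matches of letters, with no measurement of binding, and genes with several windows count more than once.

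The arrays had similar distributions, with medians over genes of 8.07 to 8.13, and Pearson's r across genes of 0.979 to 0.995 between arrays of an arm. At most 8 probe sets had identical values in any pair of arrays. The label was checked on myeloid markers: MPO, the peroxidase of promyelocyte granules, lay between 12.67 and 13.81, while the lymphocyte genes CD3E (6.19 to 6.75) and MS4A1 (5.27 to 5.81) lay below the lower quartile of every array (6.86 to 7.03). Lymphocyte genes did not all read low, as CD3D lay at 6.95 to 8.61 and CD79A at 7.87 to 10.91. Nor did promyelocyte markers all read as high as MPO, with ELANE at 8.88 to 9.35 and CTSG at 7.56 to 11.45. The untreated scrambled replicate 2 array stood apart from the other untreated arrays before any ATRA, with the retinoid-induced TGM2 at 12.86, against 7.93 to 8.30, and the integrin ITGAM at 10.16, against 7.31 to 8.56. Its condensin values stayed within those of the other untreated arrays for 6 subunits, while its SMC4 (10.64) was the highest and its NCAPH2 (8.25) the lowest of the 6.

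Condensin mRNA fell with ATRA in knockdown and control cells. In knockdown cells 5 of the 8 subunits passed limma's test as lower (p adjusted over all genes under 0.05), where 14.7% of all genes did, and the median log2 change of the 8 was -0.54, against -0.03 over all genes. In control cells 7 of 8 passed as lower, where 20.9% of all genes did, with a median of -0.81, against 0.05 over all genes. Called higher were 0 of 8 in either, where 10.1% of all genes were in knockdown cells and 15.2% in control cells. The ATRA arrays lay below the untreated arrays without overlap for 8 of 8 subunits in knockdown cells, as for 24.6% of all genes, and for 7 of 8 in control cells, as for 23.4%. All 8 sat below their untreated values in each of the 6 lines, from -0.09 for NCAPH2 in shRNA2 cells to -1.22 for NCAPD3 in wild type cells. In bulk RNA, fewer dividing cells and less RNA per cell cannot be told apart. Markers of mature granulocytes moved the other way, with 7 of 7 measured called higher in knockdown cells and 6 of 7 in control cells, and of 4 measured monocyte markers 2 and 3 were called higher in the same order. CSF1R, the receptor for macrophage colony-stimulating factor, differed most of these (0.90 and 1.08). The mean level of the granulocyte markers was 10.2 to 10.5 in knockdown cells with ATRA, against 8.47 to 8.70 untreated, and 10.5 to 10.9 in control cells with ATRA, against 8.67 to 9.73 untreated. The mean of the monocyte markers was 6.90 to 7.28 in knockdown cells with ATRA, against 6.65 to 6.92 untreated, and 7.32 to 7.38 in control cells with ATRA, against 6.68 to 6.81 untreated. The part of these markers in the condensin result was not tested.

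**Figure D1:**
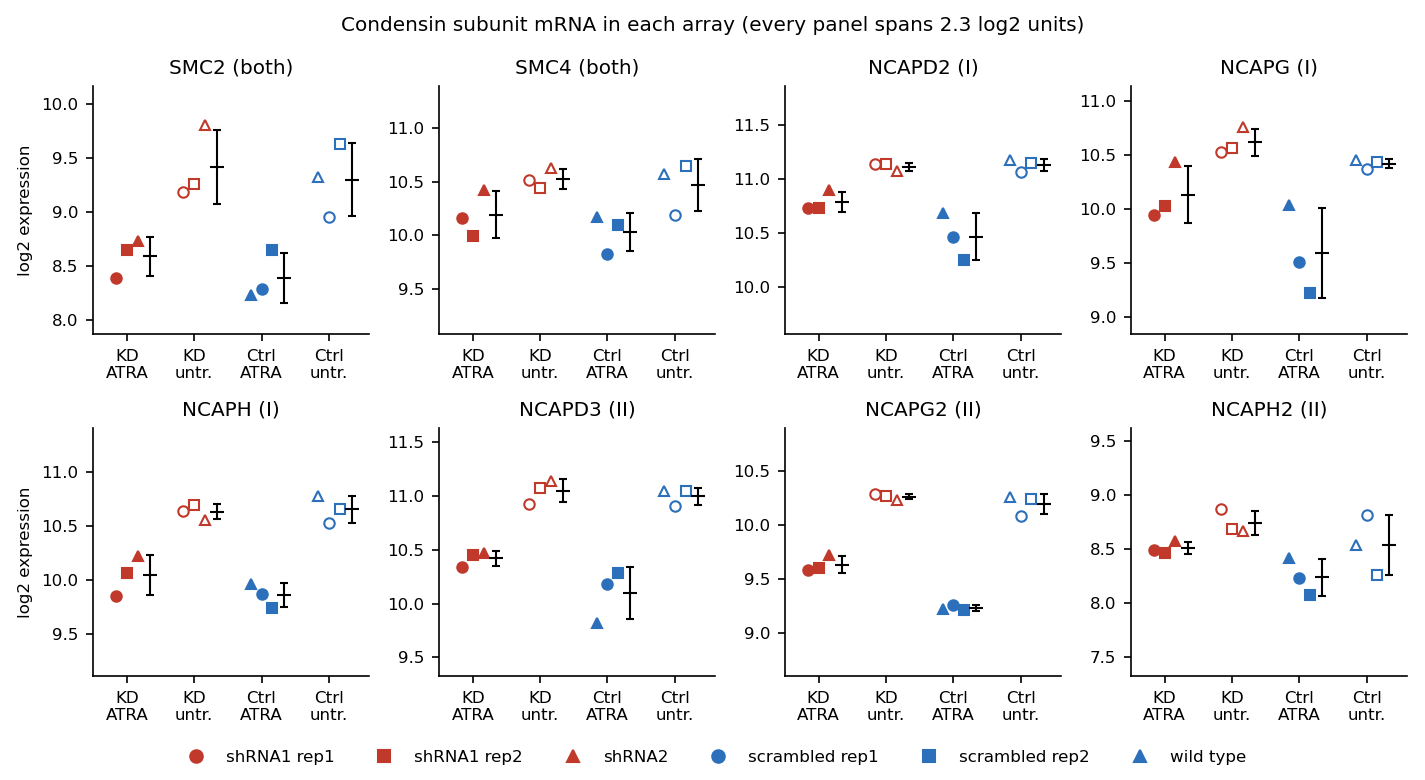
log2 expression of each condensin subunit (vertical axis) in every array, by arm (horizontal axis: knockdown, KD, and control, Ctrl, cells with ATRA, filled symbols, or untreated, open symbols). Symbols mark the lines, bars the mean and SD of 3 arrays, and (I), (II) and (both) the complex; apart from NCAPH2 in control cells, the ATRA arrays lie below the untreated arrays of the same cells in every panel.

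Of the shared ATPases, SMC2 passed as lower in both kinds of cell, and SMC4 in control cells. SMC2 read 8.39 and 8.64 in the 2 shRNA1 arrays and 8.73 in the shRNA2 array after ATRA, against 9.18, 9.26 and 9.81 in the same untreated lines. In control cells SMC2 read 8.28 and 8.65 in scrambled and 8.23 in wild type cells after ATRA, against 8.95, 9.63 and 9.32 untreated. The ATRA and untreated arrays did not overlap in either kind of cell, although the lines themselves differed before treatment (8.95 to 9.81). SMC2 fell by 0.83 in knockdown cells (SE 0.20, limma adjusted p = 0.00987) and by 0.91 in control cells (SE 0.20, adjusted p = 0.00432), that is, to 56.3% and 53.1% of the untreated level. In scrambled and shRNA1 cells alone the call in knockdown cells ended (-0.71, adjusted p = 0.0847).

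SMC4, its partner ATPase, read 10.17, 9.99 and 10.42 in shRNA1 replicates 1 and 2 and shRNA2 cells after ATRA, against 10.52, 10.44 and 10.62 untreated. In scrambled replicates 1 and 2 and wild type cells it read 9.83, 10.10 and 10.17 after ATRA, against 10.19, 10.64 and 10.57 untreated. The groups did not overlap, but they nearly touched in each kind of cell (10.42 against 10.44 and 10.17 against 10.19). SMC4 changed by -0.33 in knockdown cells (SE 0.14, 95% interval -0.64 to -0.02, adjusted p = 0.116) and fell by 0.44 in control cells (SE 0.14, adjusted p = 0.0320). The control call ended without the untreated scrambled replicate 2 (adjusted p = 0.101), untreated wild type (0.109), scrambled replicate 1 ATRA (0.113) or scrambled replicate 2 ATRA array (0.0511), in scrambled and shRNA1 cells alone (-0.45, adjusted p = 0.111), and after quantile normalization of the arrays (-0.26, adjusted p = 0.212). With each line as a block the fall in knockdown cells passed the test (adjusted p = 0.0231).

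Among the condensin I subunits, NCAPH, the kleisin, fell in both kinds of cell. It read 9.85, 10.07 and 10.22 in shRNA1 replicates 1 and 2 and shRNA2 cells after ATRA, against 10.64, 10.70 and 10.56 untreated, and 9.87, 9.74 and 9.97 in scrambled replicates 1 and 2 and wild type cells after ATRA, against 10.53, 10.66 and 10.78 untreated. Every ATRA array lay below every untreated array of either kind of cell. NCAPH fell by 0.59 in knockdown cells (SE 0.10, adjusted p = 0.00194) and by 0.80 in control cells (SE 0.10, adjusted p = 0.000227).

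NCAPD2, a HEAT-repeat subunit, read 10.74, 10.73 and 10.90 in shRNA1 replicates 1 and 2 and shRNA2 cells after ATRA, against 11.14, 11.14 and 11.07 untreated. In scrambled replicates 1 and 2 and wild type cells it read 10.47, 10.25 and 10.69 after ATRA, against 11.07, 11.15 and 11.18 untreated. Its range over the 6 untreated arrays was the narrowest of the 8 subunits. The knockdown arrays were thus above all 3 control arrays once ATRA had been given. NCAPD2 fell by 0.33 in knockdown cells (SE 0.10, adjusted p = 0.0342) and by 0.66 in control cells (SE 0.10, adjusted p = 0.000538). The call in knockdown cells ended without any 1 of 5 arrays, namely the 3 untreated knockdown arrays (adjusted p = 0.0629 to 0.0919) and both shRNA1 ATRA arrays (0.103 and 0.107), and after quantile normalization (-0.25, adjusted p = 0.0917).

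NCAPG, the other HEAT-repeat subunit of condensin I, had the widest spread of the 8 between lines after ATRA, with an SD of 0.26 in knockdown and 0.42 in control cells. It read 9.95, 10.03 and 10.44 in shRNA1 replicates 1 and 2 and shRNA2 cells, against 10.53, 10.57 and 10.76 untreated. Scrambled replicates 1 and 2 and wild type cells read 9.51, 9.22 and 10.04 after ATRA, against 10.38, 10.43 and 10.45 untreated. Wild type cells thus kept a higher value after ATRA than both scrambled arrays and both shRNA1 arrays. NCAPG changed by -0.48 in knockdown cells (SE 0.18, 95% interval -0.88 to -0.09, adjusted p = 0.0743) and fell by 0.83 in control cells (SE 0.18, adjusted p = 0.00441). In knockdown cells it passed with each line as a block (adjusted p = 0.0414), without shRNA2 ATRA (-0.63, 0.0381), without scrambled replicate 2 ATRA (0.0382) or wild type ATRA (0.0172), and in scrambled and shRNA1 cells alone (-0.56, 0.0210).

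Among the condensin II subunits, NCAPG2 changed with the smallest SE. It read 9.58, 9.60 and 9.72 in shRNA1 replicates 1 and 2 and shRNA2 cells after ATRA, against 10.28, 10.27 and 10.23 untreated. In scrambled replicates 1 and 2 and wild type cells it read 9.26, 9.22 and 9.22 after ATRA, against 10.08, 10.24 and 10.26 untreated. The SD of the 3 control arrays after ATRA was 0.02, and the 4 arms fell into 3 separate levels: untreated cells of both kinds, knockdown cells with ATRA below them, and control cells with ATRA lowest. NCAPG2 fell by 0.63 in knockdown cells (SE 0.07, adjusted p = 0.00025) and by 0.96 in control cells (SE 0.07, adjusted p = 3.06e-05), to 64.7% and 51.3% of the untreated level. By its p-value the control change ranked 10 among the 18404 genes.

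NCAPD3, the HEAT-repeat partner of NCAPG2, read 10.34, 10.45 and 10.47 in shRNA1 replicates 1 and 2 and shRNA2 cells after ATRA, against 10.93, 11.07 and 11.13 untreated. In scrambled replicates 1 and 2 and wild type cells it read 10.18, 10.29 and 9.82 after ATRA, against 10.90, 11.04 and 11.04 untreated. Wild type cells had the lowest value after ATRA, the opposite of their place for NCAPG. NCAPD3 fell by 0.63 in knockdown cells (SE 0.11, adjusted p = 0.00203) and by 0.90 in control cells (SE 0.11, adjusted p = 0.000181).

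NCAPH2, the kleisin of condensin II, passed in neither kind of cell. It read 8.49, 8.46 and 8.57 in shRNA1 replicates 1 and 2 and shRNA2 cells after ATRA, against 8.87, 8.69 and 8.66 untreated, with no overlap. In scrambled replicates 1 and 2 and wild type cells it read 8.22, 8.07 and 8.41 after ATRA, against 8.82, 8.25 and 8.53 untreated, and these groups overlapped. The change was -0.23 in knockdown cells (SE 0.13, 95% interval -0.52 to 0.06, adjusted p = 0.251) and -0.30 in control cells (SE 0.13, interval -0.58 to -0.01, adjusted p = 0.0978). It passed in control cells without the untreated scrambled replicate 2 array (-0.44, adjusted p = 0.0155) and with array weights (-0.32, adjusted p = 0.0163), and read -0.16 without untreated scrambled replicate 1.

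**Figure D2:**
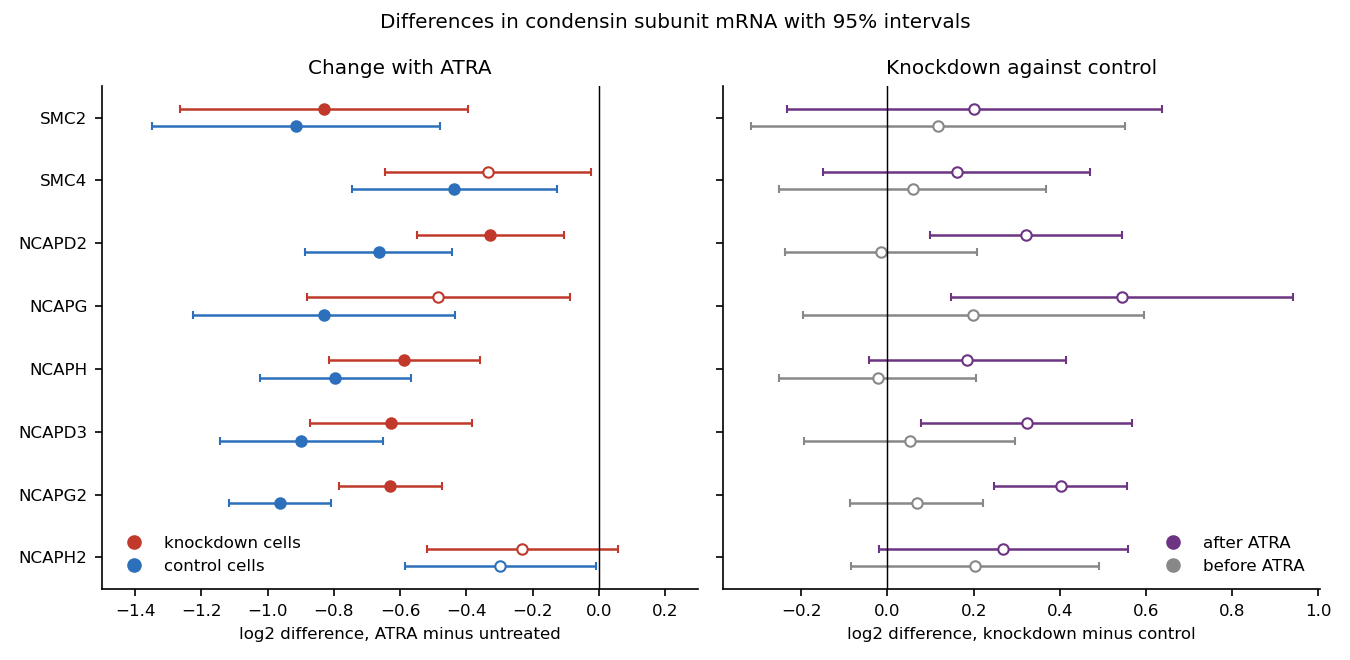
Differences in log2 expression (horizontal axis) for each subunit (vertical axis) with 95% intervals of the limma fit, on the left ATRA minus untreated in knockdown and control cells, on the right knockdown minus control after and before ATRA. Filled points have an adjusted p under 0.05; the 8 subunits lie below 0 on the left, and on the right all 8 differences after ATRA are positive with 0 of them filled.

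Whether HOTAIRM1 knockdown goes with other condensin levels was asked in each state. Before ATRA, 0 of 8 subunits passed limma's test between knockdown and control cells, where 0% of all genes did, and 0 of 8 had an unadjusted p under 0.05, against 3.95% of all genes. The differences ran from -0.02 for NCAPH to 0.20 for NCAPH2 and NCAPG, with an adjusted p of 0.999 for each. The arrays of NCAPG were 10.53 to 10.76 in knockdown cells, against 10.38 to 10.45 in control cells, without overlap, as for 3.75% of all genes in this direction. The 95% intervals allowed differences of -0.32 to 0.55 for SMC2 and of -0.09 to 0.22 for NCAPG2.

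After ATRA, knockdown cells held more condensin mRNA than control cells in the mean of all 8 subunits, but 0 of 8 passed, where 0.0598% of all genes did. An unadjusted p under 0.05 was found for 4 of 8, NCAPG2, NCAPD2, NCAPG and NCAPD3, each higher, as for 12% of all genes in this direction. The median difference was 0.30, against -0.03 over all genes, and 45.3% of all genes had a positive difference. NCAPG2 was 0.40 higher (SE 0.07, 95% interval 0.25 to 0.56, adjusted p = 0.0506), at 132% of the control level. It passed without the untreated scrambled replicate 2 array (adjusted p = 0.0391), without the lowest 33.3% of genes (0.0478) and with array weights (0.0308), and its adjusted p ran up to 0.161 when other arrays were left out. NCAPG2 did not pass after quantile normalization (0.28, adjusted p = 0.0586) or in scrambled and shRNA1 cells alone (0.35, adjusted p = 0.217). NCAPG differed by 0.54 (SE 0.18, interval 0.15 to 0.94, adjusted p = 0.0942), by 0.77 without wild type ATRA cells and by 0.36 without scrambled replicate 2 ATRA, and passed with array weights (0.63, adjusted p = 0.0491). NCAPD2 and NCAPD3 differed by 0.32 each (adjusted p = 0.0847 and 0.102). NCAPH2 differed by 0.27 (0.203), SMC2 by 0.20 (0.522), NCAPH by 0.19 (0.260) and SMC4 by 0.16 (0.471). Single arrays moved these values by over 1.5 times: SMC4 was 0.046, NCAPH 0.098 and SMC2 0.13 without shRNA2 ATRA, and NCAPD3 was 0.19 and SMC2 0.12 without wild type ATRA. SMC2 was 0.33 and NCAPD2 0.21 without scrambled replicate 2 ATRA, and NCAPH was 0.28 without shRNA1 replicate 1 ATRA. SMC4 was 0.26 without shRNA1 replicate 2 ATRA and 0.058 without scrambled replicate 1 ATRA. After quantile normalization SMC4 was 0.048 and NCAPH 0.069, and with array weights SMC4 was 0.26. In scrambled and shRNA1 cells alone SMC2 was 0.048 and NCAPD3 0.16. All 3 knockdown arrays lay above all 3 control arrays for 4 subunits, NCAPD2, NCAPD3, NCAPG2 and NCAPH2, as for 14.3% of all genes. The mature granulocyte markers, at 10.2 to 10.5 in these knockdown arrays and 10.5 to 10.9 in the control arrays, had 0 of 7 called, and their part was not tested.

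The difference between the responses, the ATRA change in knockdown cells minus that in control cells, was positive for 8 of 8 subunits and passed for 0 of 8, where 0% of all genes passed. It uses the same ATRA arrays as the comparison above. It was 0.33 for NCAPG2 (SE 0.10, interval 0.12 to 0.55, unadjusted p = 0.00612, adjusted p = 0.271) and 0.34 for NCAPD2 (SE 0.14, interval 0.02 to 0.65, unadjusted p = 0.0379, adjusted p = 0.308). It was 0.34 for NCAPG, 0.27 for NCAPD3, 0.21 for NCAPH, 0.10 for SMC4, 0.08 for SMC2 and 0.07 for NCAPH2 (adjusted p = 0.410 to 0.893), and 48.7% of all genes had a positive value. Without single arrays NCAPG ran from 0.16 (scrambled replicate 2 ATRA left out) to 0.57 (wild type ATRA left out), NCAPD3 from 0.13 (wild type ATRA) to 0.37 (scrambled replicate 2 ATRA) and NCAPH from 0.12 (shRNA2 ATRA) to 0.31 (shRNA1 replicate 1 ATRA). NCAPG2 stayed between 0.29 and 0.39 and NCAPD2 between 0.23 and 0.45. The signs of SMC2, SMC4 and NCAPH2 turned when single arrays were left out, and that of SMC4 after quantile normalization (-0.012). The median over the 8 was 0.24, and 0.12 after quantile normalization, beside medians of 0.09 to 0.21 in the 5 related gene lists described last.

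Line by line, the median change of the 8 subunits was -0.58 in both shRNA1 lines and -0.33 in the shRNA2 line, against -0.66 and -0.91 in the scrambled lines and -0.65 in wild type cells. NCAPG2 changed by -0.70, -0.67 and -0.52 in shRNA1 replicates 1 and 2 and shRNA2 cells, against -0.82, -1.03 and -1.04 in scrambled replicates 1 and 2 and wild type cells. NCAPD2 changed by -0.40, -0.41 and -0.17, against -0.60, -0.90 and -0.49 in the same order, and NCAPD3 by -0.59, -0.62 and -0.67, against -0.72, -0.75 and -1.22. For these 3 subunits the change in every knockdown line lay above that in every control line, as for 9.16% of all genes, a share that also counts genes that were higher with ATRA. The shRNA2 line had the smallest change of any line for 6 of 8 subunits, SMC4 (-0.20), NCAPD2 (-0.17), NCAPG (-0.33), NCAPH (-0.34), NCAPG2 (-0.52) and NCAPH2 (-0.09). Yet its changes of SMC2 (-1.08) and NCAPD3 (-0.67) were larger than those of either shRNA1 line. With 1 pair of arrays for shRNA2, the shRNAs were not tested against each other.

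**Figure D3:**
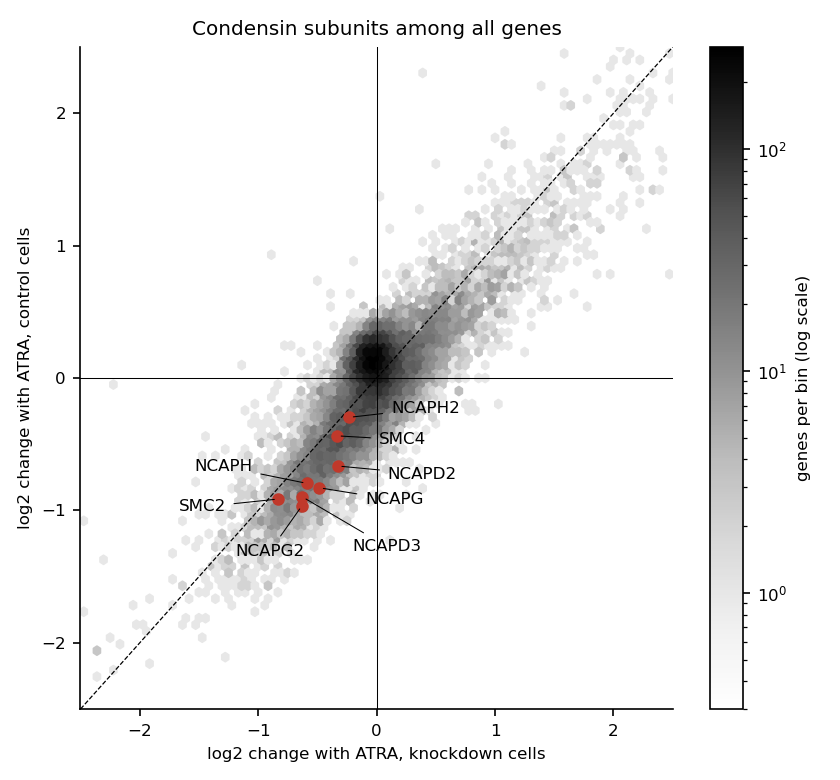
log2 change with ATRA in knockdown cells (horizontal axis) and in control cells (vertical axis) for all genes, as shaded bins, and for the 8 condensin subunits, as red points. The 8 points lie below the dashed line of equal change, so each had a lower mean change in control cells than in knockdown cells; 95 genes lie beyond 2.5 log2 units and are not drawn.

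Each condensin I subunit has a counterpart in condensin II, and the log2 ratio of the 2 probe sets within an array shows whether the pair changed unequally. The ratio itself has no meaning as a level, since probes differ in brightness. The kleisin ratio NCAPH/NCAPH2 was 1.36, 1.61 and 1.65 in shRNA1 replicates 1 and 2 and shRNA2 cells after ATRA, against 1.77, 2.01 and 1.90 untreated. In scrambled replicates 1 and 2 and wild type cells it was 1.64, 1.67 and 1.55 after ATRA, against 1.71, 2.40 and 2.25 untreated. All 6 ATRA arrays lay below all 6 untreated arrays, and the ratio was lower after ATRA in 6 of 6 lines, by 0.07 in scrambled replicate 1 to 0.73 in scrambled replicate 2. The mean difference was -0.43, from 1.58 ± 0.12 with ATRA and 2.01 ± 0.27 untreated (SD, n = 6 each). A two-sided exact permutation test within each kind of cell gave p = 0.005, the smallest that its 400 arrangements allow (0.015 after Benjamini-Hochberg adjustment over 3 ratios). With each line as a block the exact permutation p was 0.03125, the smallest that 64 arrangements allow. The same adjustment took it to 0.09375, so the ratio did not pass in this paired test. With 3 ratios, 1 ratio alone at that smallest p cannot pass. After quantile normalization the difference was -0.31 and missed the threshold (exact permutation p = 0.02, adjusted 0.06). In the unpaired test of the deposited values, NCAPH was lowered by more than NCAPH2 on the log2 scale. NCAPH2 read 8.07 to 8.87, near the array medians over genes (8.07 to 8.13), while NCAPH read 9.74 to 10.78. The part of this difference in level was not tested.

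The HEAT-repeat ratios did not pass. NCAPD2/NCAPD3 was 0.37 ± 0.29 with ATRA and 0.10 ± 0.09 untreated (SD, n = 6 each), a difference of 0.27 that was positive in 5 of 6 lines (exact permutation p = 0.055, adjusted 0.0825). The wild type ATRA array had the highest value, 0.87, and without it the difference was 0.17 (exact permutation p = 0.085). The difference passed without scrambled replicate 2 ATRA (0.35, exact permutation p = 0.005, adjusted 0.015). NCAPG/NCAPG2 was 0.43 ± 0.30 with ATRA and 0.29 ± 0.12 untreated, a mean difference of 0.14 that was positive in 4 of 6 lines (exact permutation p = 0.34, adjusted 0.34). The mean difference was 0.06 without wild type ATRA.

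**Figure D4:**
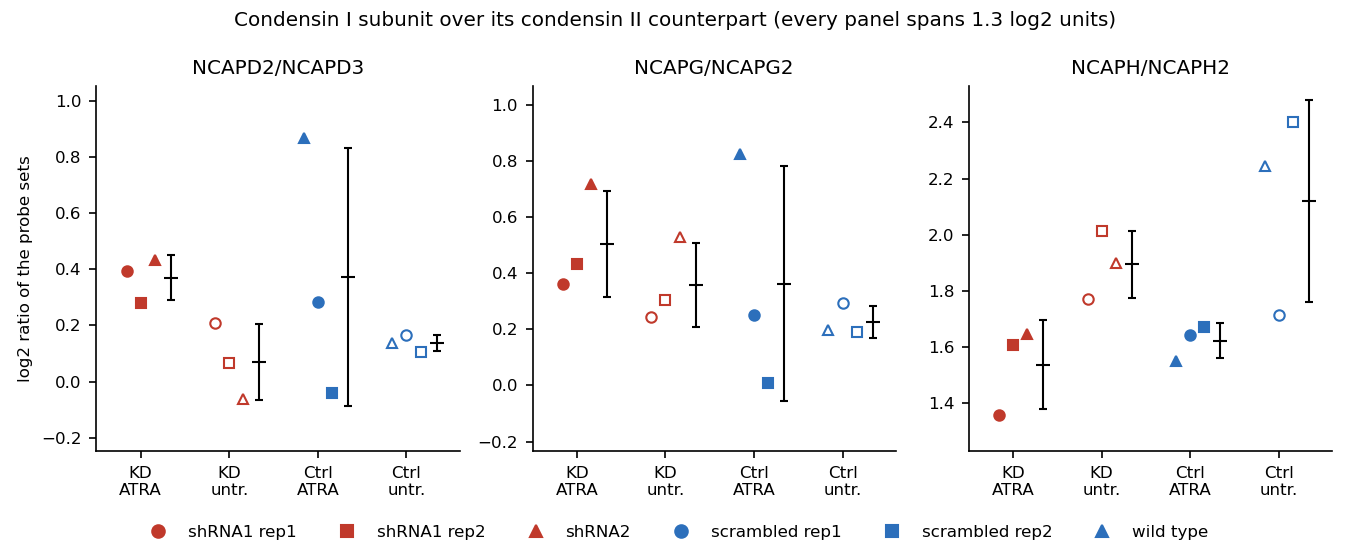
log2 ratio of each condensin I subunit over its condensin II counterpart (vertical axis) in every array, by arm (horizontal axis: knockdown, KD, and control, Ctrl, cells with ATRA, filled, or untreated, open), with the mean and SD of 3 arrays. The NCAPH/NCAPH2 ratio is 1.36 to 1.67 with ATRA and 1.71 to 2.40 untreated, while the wild type ATRA array is the highest of the other 2 ratios.

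Among themselves, the 8 subunits varied together over the 12 arrays, with Pearson's r between 0.37 and 0.96 for the 28 pairs (median 0.82). These values share the ATRA effect and the arrays. After the arm means were taken away, the 3 condensin I subunits still correlated, with r of 0.89 for NCAPD2 and NCAPG, 0.74 for NCAPD2 and NCAPH and 0.66 for NCAPG and NCAPH. The condensin II subunits gave 0.28 for NCAPD3 and NCAPG2, -0.36 for NCAPG2 and NCAPH2 and -0.70 for NCAPD3 and NCAPH2, and SMC2 with SMC4 gave 0.59. Pairs of a condensin I with a condensin II subunit ran from -0.64 for NCAPD2 and NCAPD3 to 0.74 for NCAPG2 and NCAPH. High values were thus not confined to pairs within condensin I. Over all pairs these correlations ran from -0.76 for SMC2 and NCAPH2 to 0.89, with a median of 0.34. They rest on 12 arrays with shared RNA quality and scale, and no test was made of them.

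The genes most like the mean of SMC2 and SMC4 over the 12 arrays were CENPF (r = 0.973), ECT2 (0.965), VIRMA (0.963), GFPT1 (0.960) and RBM22 (0.957). For the mean of NCAPD2, NCAPG and NCAPH they were CENPN (0.992), KIF2C (0.989), H3C12 (0.979), KIF22 (0.974) and ANLN (0.973). For the mean of NCAPD3, NCAPG2 and NCAPH2 they were EXO1 (0.994), TFAM (0.991), ZNF275 (0.989), CENPO (0.988) and POLE2 (0.988). The 3 sets of 5 shared no gene. KIF2C, a kinesin of centromeres, fell by 0.62 in knockdown cells and by 0.93 in control cells, and CENPF, a kinetochore protein, fell by 1.02 and by 1.01. EXO1, an exonuclease of DNA repair, fell by 0.93 and by 1.58. As these genes were ranked on the same arrays, their likeness is a description.

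The kinases and cyclins that act on or beside condensin fell with ATRA as well. Of 14 listed kinases, cyclins and partners 13 were measured, and 13 of 13 were called lower both in knockdown cells (median -0.67, where 14.7% of all genes were called lower) and in control cells (median -0.80, where 20.9% were). CDK2 fell by 0.54 in knockdown cells and by 0.83 in control cells. CCNB1, the cyclin that activates the mitotic kinase CDK1, fell by 0.91 and by 0.90. The Aurora B partners CDCA8 (0.76 and 0.97) and BIRC5 (0.67 and 0.80) fell in the same order. CSNK2A2, a catalytic subunit of casein kinase 2, which restrains condensin I in interphase, fell by 0.35 and by 0.43. Many of the listed genes are also marks of dividing cells. The part of the list in the condensin result was not tested.

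Of 12 listed genes of mitotic chromosome structure 10 were measured, and 5 were called lower in knockdown cells (median -0.48, where 14.7% of all genes were called lower) and 7 in control cells (median -0.54, where 20.9% were). KIF4A, a kinesin that works with condensin on the chromosome axis, fell by 0.74 in knockdown cells and by 0.77 in control cells, and KIF22 by 0.57 and by 0.88. NUSAP1, a spindle-binding protein, fell by 0.58 and by 0.62, and SET, a histone chaperone, by 0.53 and by 0.59. TOP2A, the topoisomerase that untangles mitotic DNA, fell by 0.58 in knockdown cells (adjusted p = 0.0496) and changed by -0.50 in control cells (adjusted p = 0.0628). MKI67, which coats mitotic chromosomes, changed by -0.33 in knockdown cells (adjusted p = 0.113) and fell by 0.50 in control cells (adjusted p = 0.0163). MCPH1, which restrains condensin II, had no probe set of its own.

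The other SMC complexes hold the same kind of ATPase pair. Of 5 genes of the core of cohesin, which ties sister chromatids together, 2 were called lower in knockdown cells (median -0.26, beside 14.7% of all genes) and 3 in control cells (median -0.45, beside 20.9%). Its ATPase SMC1A fell by 0.40 in knockdown cells and by 0.75 in control cells, and its kleisin RAD21 by 0.37 and by 0.57. SMC3 changed by -0.26 in knockdown cells (adjusted p = 0.146) and fell by 0.45 in control cells, and STAG1 changed by 0.00 and by -0.23 (adjusted p = 0.982 and 0.0617). Of 9 genes of the SMC5 and SMC6 complex, which acts in DNA repair, 1 was called lower in knockdown cells (median -0.08), NSMCE4A at -0.37, a share no larger than the 14.7% of all genes, and 4 in control cells (median -0.28, beside 20.9% of all genes). SMC6 changed by -0.14 in knockdown cells (adjusted p = 0.426) and fell by 0.81 in control cells. In the same order, SLF1 changed by -0.47 (adjusted p = 0.101) and fell by 0.99, and NSMCE1 changed by -0.13 (adjusted p = 0.440) and fell by 0.54. NSMCE4A fell by 0.65 in control cells. The lists were not tested against each other.

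**Figure D5:**
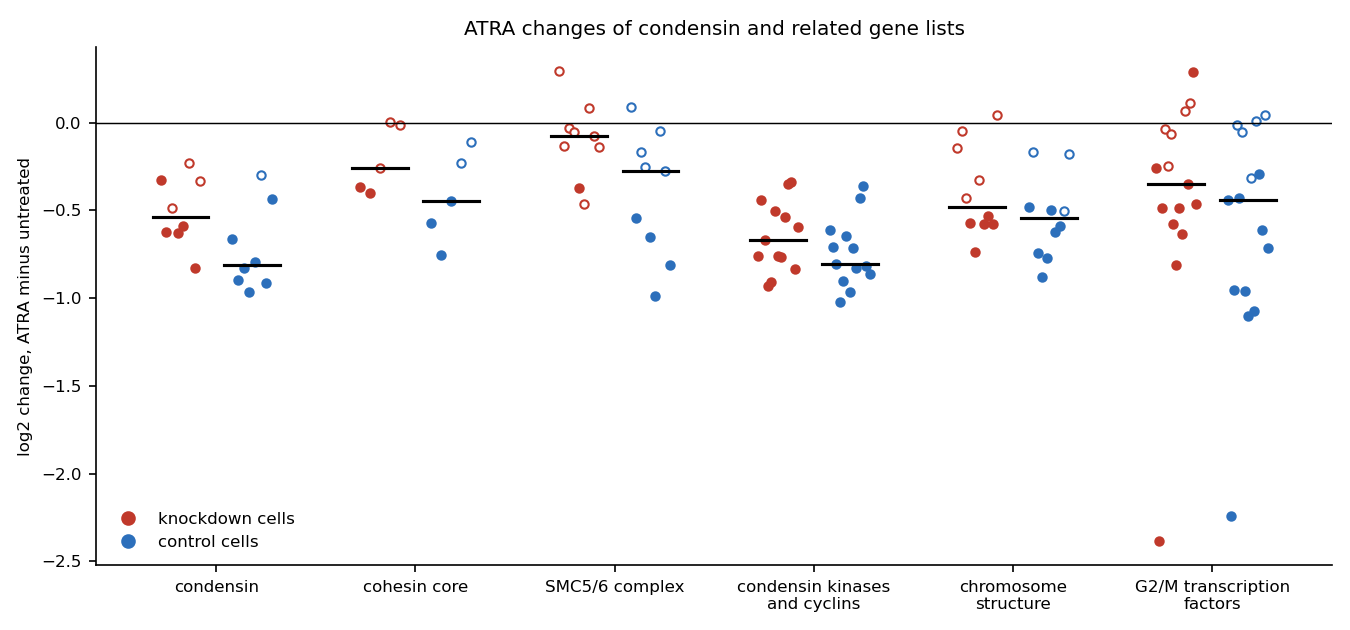
log2 change with ATRA (vertical axis) of each gene of condensin and 5 related lists (horizontal axis), in knockdown cells on the left and control cells on the right of each list. Filled points were called at an adjusted p under 0.05 and lines are medians; the condensin medians are -0.54 and -0.81, and those of the SMC5/SMC6 genes -0.08 and -0.28.

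Of 15 factors known to drive or silence genes with CHR, CCAAT and E2F elements, 9 were called lower and 1 higher in knockdown cells (median -0.35, beside 14.7% of all genes lower and 10.1% higher), and 10 lower and 0 higher in control cells (median -0.44, beside 20.9% lower and 15.2% higher). FOXM1, an activator of mitotic genes, fell by 0.49 in knockdown cells and by 0.96 in control cells. MYBL2, which acts with it, fell in both (-0.81 and -1.10), and LIN9, a core part of the complex that binds CHR elements, fell by 0.58 and by 0.96. NFYB, a subunit of the CCAAT-binding factor NF-Y, fell by 0.64 and by 1.07. Not every partner of LIN9 and NFYB passed in both kinds of cell. In the same order, LIN54 changed by -0.07 and -0.05 (adjusted p = 0.816 and 0.810) and LIN37 by -0.04 and -0.01 (0.807 and 0.894). NFYC changed by 0.06 and 0.01 (adjusted p = 0.594 and 0.950). NFYA fell by 0.49 in knockdown cells and changed by -0.32 in control cells (adjusted p = 0.0180 and 0.0805). RBL2, a pocket protein that silences these genes in resting cells, was the gene called higher in knockdown cells (0.29, adjusted p = 0.0440) and differed by 0.05 in control cells (adjusted p = 0.728). When knockdown was set against control cells, 0 of these 15 genes were called before or after ATRA. Of the kinase, chromosome structure, cohesin and SMC5 and SMC6 genes, 0 were called as well. Among all genes, 0% were called before and 0.0598% after ATRA, so these counts do not set the lists apart.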

How the data were processed

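The deposited values are log2 expression per probe set, made by the authors with RMA and limma, per the submitters' processing notes, which give no versions or settings. Labelled cDNA from total RNA was put on Affymetrix ST arrays, per the labels' protocols, and the genome build is not given in the sources used here. They were used as deposited, with no filter on low values. The precision is limited by the number of arrays.

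Of 32321 probe sets, 19158 were annotated to 1 gene, 1388 to several and 11775 to none. Symbols were updated by Entrez identifier (19128 matched, 0 changed), and for the 637 genes with several probe sets, the 1 brightest on average over all 12 arrays was taken. All 18404 genes were fitted with limma 3.58.1 in R 4.3.3 (4 arm means, 8 residual degrees of freedom, eBayes), with two-sided p-values and Benjamini-Hochberg adjustment over all genes of a comparison. The fit was tested on simulated data. The wild type and scrambled arrays formed the control arms, and the shRNA1 and shRNA2 arrays the knockdown arms. The alternatives were each line as a block, each array left out, a filter on the lowest 33.3% of genes, the median over probe sets, quantile normalization, scrambled and shRNA1 cells alone, and array weights.

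Sample names pair an untreated with an ATRA sample in each of 6 lines. Deviations from the arm means correlated above 0.1 in 4 of these 6 pairs (-0.17 to 0.23), against 2 of 12 other pairs (-0.29 to 0.32). Named genes were the 8 subunits, the 5 genes closest to each of 3 subunit means, and up to 4 genes of smallest p in the control ATRA comparison for each list. Genes singled out for their role were chosen after their values were seen (TOP2A, MKI67, CSNK2A2, RBL1, RBL2, E2F4, E2F5, LIN37, LIN54, NFYA and NFYC). MPO, ELANE, CTSG, CD3D, CD3E, CD79A, MS4A1, TGM2 and ITGAM are markers. The members and lists were chosen with earlier results of these data known. Promoter sequences are from RefSeq, and 7 of 8 genes matched by symbol.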

Additional observations from a re-analysis of the deposited data

How the results depend on the processing

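Every subunit changed downward with ATRA in both kinds of cell under each alternative. After quantile normalization 4 subunits were called lower in knockdown cells and 6 in control cells. In the same order, array weights gave 5 and 8, and scrambled and shRNA1 cells alone gave 5 and 6. Counts of subunits called lower were 4 to 6 in knockdown cells and 6 to 7 in control cells when single arrays were left out, and with each line as a replicate block 7 in knockdown cells, where SMC4 (adjusted p = 0.0231) and NCAPG (0.0414) were added, and 7 in control cells; the block changed no other subunit's call. Among all genes, 2012 to 2878 were called lower in knockdown cells without single arrays, against 2714 with all, and 2977 to 3884 in control cells, against 3844; scrambled and shRNA1 cells alone gave 1415 and 2218, and there SMC2 missed the threshold in knockdown cells (-0.71, adjusted p = 0.0847) and SMC4 in control cells (-0.45, adjusted p = 0.111).

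After ATRA, 11 genes were called in the comparison of knockdown with control cells, but 63 without the lowest 33.3% of genes, 280 after quantile normalization (138 higher and 142 lower, against 10 and 1), 696 with array weights, 0 in scrambled and shRNA1 cells alone, and 0 to 701 without single arrays, with 701 when untreated scrambled replicate 2 was left out. Subunits called there were 0, against 1 without the lowest genes, 2 with array weights and 0 to 1 without single arrays; the cause was not tested.

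Before ATRA, signs turned for SMC2 (-0.070), NCAPD2 (0.032) and NCAPH (0.075) in scrambled and shRNA1 cells alone and for SMC4 (-0.030) and NCAPD3 (-0.00073) with array weights. Without single arrays SMC2 ran from -0.080 to 0.28, SMC4 from -0.081 to 0.15, NCAPD2 from -0.047 to 0.0097 and NCAPH from -0.085 to 0.038. In the difference between responses SMC4 read -0.012 after quantile normalization, and without single arrays SMC2 ran from -0.080 to 0.28, SMC4 from -0.012 to 0.24 and NCAPH2 from -0.075 to 0.21; the cause was not tested. NCAPD2/NCAPD3 ran from 0.17 to 0.35 without single arrays and passed at 0.35. NCAPH/NCAPH2 stayed between -0.49 and -0.35 without single arrays (p adjusted over 3 ratios 0.015 to 0.045), but missed the threshold after quantile normalization (-0.31, adjusted exact permutation p = 0.06; the cause was not tested). With each line as a replicate block (-0.43, adjusted exact permutation p = 0.09375) it missed as well, although its unadjusted p was the smallest that this test allows. With 3 arrays an arm, 2 constructs and 1 wild type sample, differences between lines cannot be told apart from those between clones, and the number of arrays limits what could be called.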
